A study of Mus musculus with 10 samples.

Results

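The CXCR3 and CXCR6 chemokine axes were followed in bulk melanoma tumors through 6 genes chosen by name out of the 45706 in the count table. These are the ligands Cxcl9, Cxcl10 and Cxcl11 with their receptor Cxcr3, and the ligand Cxcl16 with its receptor Cxcr6. Whole tumors were taken 4 days after melanoma cells were implanted into C57BL/6 mice aged 8 weeks, and RNA was sequenced from the 3′ ends of transcripts. The cells came from a Braf-driven mouse melanoma line of the same strain and were either COX-competent (Ptgs+/+, 4 tumors) or deficient in COX-1 and COX-2, the enzymes encoded by Ptgs1 and Ptgs2, after CRISPR/Cas9 editing (Ptgs-/-, 3 tumors). A further 3 Ptgs-/- tumors grew in mice that were depleted of NK cells with anti-NK1.1 (200 µg) and antiASIALO GM1 (30 µg) on days 0 and 2, while the other mice were untreated. No NK cell-depleted group with Ptgs+/+ tumors was analysed here, and whether the edited cells were 1 clone is not given in the sources used here. Where nothing says that the tumors came from separate mice, the p-values measure the spread between these samples.

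CXCL9, CXCL10 and CXCL11 are chemokines that cells such as macrophages and dendritic cells make in response to interferon, above all IFN-γ. All bind CXCR3, a receptor of NK cells and activated T cells, and attract these cells into inflamed tissue and tumors. CXCL16 is made as a membrane-bound protein that is shed by the proteases ADAM10 and ADAM17, and its receptor CXCR6 sits on effector and tissue-resident T cells, NKT cells and some NK and innate lymphoid cells.

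The 3 CXCR3 ligands form a cluster on chromosome 5 of GRCm38, all on the minus strand. Cxcl9 (ENSMUSG00000029417) spans chr5:92321347-92328079, Cxcl10 (ENSMUSG00000034855) chr5:92346638-92348889 and Cxcl11 (ENSMUSG00000060183) chr5:92359544-92365485. Cxcl11 is annotated as a polymorphic pseudogene, since the C57BL/6 allele carries a frameshift and does not encode the functional chemokine. Cxcr3 (ENSMUSG00000050232) lies at chrX:101731535-101734269, Cxcl16 (ENSMUSG00000018920) at chr11:70453983-70459984, both on the minus strand, and Cxcr6 (ENSMUSG00000048521) at chr9:123806475-123811760 on the plus strand. Cxcl10 and Cxcl16 share exonic sequence with Art3 and Zmynd15 on the opposite strand, Cxcl11 lies in an intron of Art3 and shares bases with the pseudogene Gm2673, and Cxcr6 lies in an intron of Fyco1 on the opposite strand. Whether the counting used strand is not given in the sources used here. Reads of Cxcl10, Cxcl11, Cxcl16 and Cxcr6 therefore cannot be told apart with certainty from those of these partners. Cxcr6 shares no exonic bases with Fyco1, nor Cxcl11 with Art3, and Gm2673 had 0 counts in total. Cxcl9 and Cxcr3 overlap no annotated gene.

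The promoters of Cxcl9 and Cxcl10, 2 interferon-induced neighbors, are shown as a description, and their part in the levels below was not tested. Each runs 5′ to 3′ on the minus strand, from 250 bases before to 50 bases after the start of the transcript (RefSeq, GRCm38.p6), at chr5:92328030-92328329 for Cxcl9 and chr5:92348840-92349139 for Cxcl10. Capitals mark a TATAAA match in Cxcl9 and, in Cxcl10, the match to the core of the interferon-stimulated response element (ISRE), in which 2 bases of any kind separate a pair of GAAA blocks.
Cxcl9: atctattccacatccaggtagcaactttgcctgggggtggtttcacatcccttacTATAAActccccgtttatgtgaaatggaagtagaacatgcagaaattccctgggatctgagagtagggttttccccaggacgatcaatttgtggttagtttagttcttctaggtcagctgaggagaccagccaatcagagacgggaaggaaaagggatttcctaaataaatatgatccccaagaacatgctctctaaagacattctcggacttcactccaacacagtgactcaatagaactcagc
Cxcl10: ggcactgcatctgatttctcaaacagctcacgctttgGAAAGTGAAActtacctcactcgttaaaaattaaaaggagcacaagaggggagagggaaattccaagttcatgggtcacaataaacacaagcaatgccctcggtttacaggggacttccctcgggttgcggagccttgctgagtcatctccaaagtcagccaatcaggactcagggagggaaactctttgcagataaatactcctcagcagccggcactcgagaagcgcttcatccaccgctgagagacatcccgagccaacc

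The ISRE core of Cxcl10 read GAAAGTGAAA and lay at bases -213 to -204 from the start, and 3.44% of the 32851 promoters of this length hold such a match on either strand. The TATAAA match of Cxcl9 lay at bases -195 to -190, and 13.6% of promoters hold one. These letters were also searched in the promoters of Cxcr3 and Cxcr6, where neither was found. An IFN-γ motif, GAS, was searched as TTCNNNGAA (in 8.3% of promoters) and the T-box site as GGTGTGA (in 3.98%). These spellings were absent from all 4 windows on both strands. The kB site was searched in a fixed, narrow spelling only (in 1.63% of promoters), which was also absent from them. Other spellings of GAS, the T-box site and the kB site were not searched, nor were other elements that respond to IFN-γ. These windows, those of Cxcl9 and Cxcl10 included, may still hold such sites. The motifs do not overlap each other here, and a match in letters shows no binding. Whether the TATAAA match of Cxcl9 is a TATA box or part of another element was not tested.

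The 10 libraries held 8150556 to 12839174 counts, so that 3 counts, taken as the floor, correspond to 0.234 to 0.368 CPM. CPM, the unit of all levels below, are counts per 1000000 counts of a library. Differences are log2 fold changes with their standard error (SE) from edgeR's quasi-likelihood test over 14550 genes. A gene passed at an adjusted p at or under 0.05 after Benjamini-Hochberg adjustment over those genes. Ptgs2 averaged 254 CPM in Ptgs+/+ and 43.0 in Ptgs-/- tumors, with a log2 fold change of -2.62 (adjusted p = 0.00229, edgeR), Ptgs1 one of -0.76 (adjusted p = 0.00202, edgeR), and Ncr1, the gene of the NK cell receptor NKp46, had 0 counts in each library from NK cell-depleted mice. The tissue is labelled as melanoma, but of 7 melanocytic markers only Mitf and Sox10 passed the filter on low counts, and Pmel, Mlana, Dct, Tyr and Tyrp1 averaged under 1 CPM in every group. Ptgs+/+ replicate 4 and Ptgs-/- replicate 3 carry a second experiment code in their labels, and the other 8 libraries carry the first. The second code gives no value of its own, with 1 library in each of these groups.

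Cxcl9 rose most in size of the 5 members that could be tested. In the Ptgs+/+ tumors it stood at 1.64, 1.75, 4.48 and 3.03 CPM (21, 17, 51 and 29 counts), in the Ptgs-/- tumors at 25.0, 23.8 and 44.1 CPM (204, 230 and 484 counts), and after NK cell depletion at 7.28, 9.69 and 12.5 CPM (68, 105 and 126 counts). The 3 groups did not overlap, with the NK cell-depleted tumors in between. Their means were 2.73 ± 1.33 (SD, n = 4), 31.0 ± 11.4 (SD, n = 3) and 9.83 ± 2.62 CPM (SD, n = 3).

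Cxcl10 followed the same order of means with more overlap. Its 4 Ptgs+/+ values were 0.857, 2.47, 0.878 and 1.67 CPM, from 10 to 24 counts. Its Ptgs-/- values were 10.8, 5.69 and 3.28 CPM, from 36 to 88 counts, and those after NK cell depletion were 1.39, 2.40 and 5.26 CPM, from 13 to 53 counts. Every Ptgs-/- tumor lay above every Ptgs+/+ tumor, whereas the NK cell-depleted tumors overlapped both. The means were 1.47 ± 0.770 (SD, n = 4), 6.59 ± 3.84 (SD, n = 3) and 3.02 ± 2.01 CPM (SD, n = 3).

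Cxcl11 was too low for the fit and is given by its counts. The Ptgs+/+ libraries held 1, 2, 8 and 4 counts, the Ptgs-/- libraries 12, 7 and 13, and the NK cell-depleted libraries 3, 0 and 3. All of the last group and 2 of the Ptgs+/+ libraries were thus at or under the floor. Summed over a group this is 0.345 CPM in Ptgs+/+ tumors (95% exact Poisson interval 0.193 to 0.569), 1.11 CPM in Ptgs-/- tumors (0.760 to 1.57) and 0.198 CPM after depletion (0.0728 to 0.432), intervals that cover counting error only. In CPM the Ptgs-/- tumors lay above both other groups, but against Ptgs+/+ tumors only by 0.724 in replicate 2 over 0.702 in Ptgs+/+ replicate 3, which overlap as counts (7 and 8) and as TMM-scaled CPM (0.715 and 0.718).

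Cxcr3, the receptor of these 3 ligands, stood at 2.57, 3.30, 2.99 and 2.20 CPM in Ptgs+/+ tumors and at 4.42, 8.69 and 11.6 CPM in Ptgs-/- tumors. After NK cell depletion it was 3.21, 4.80 and 3.58 CPM, which overlapped both other groups. The means were 2.76 ± 0.481 (SD, n = 4), 8.23 ± 3.60 (SD, n = 3) and 3.86 ± 0.831 CPM (SD, n = 3).

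Cxcl16 was the member with the least spread in Ptgs+/+ tumors relative to its level, at 43.2, 44.9, 41.0 and 40.0 CPM. The Ptgs-/- tumors held 49.0, 78.1 and 78.0 CPM and the NK cell-depleted tumors 37.0, 44.1 and 40.5 CPM. Ptgs-/- tumors lay above both other groups, replicate 1 only narrowly, while the other groups overlapped, with means of 42.2 ± 2.19 (SD, n = 4) for Ptgs+/+, 68.3 ± 16.8 (SD, n = 3) for Ptgs-/- and 40.6 ± 3.54 CPM (SD, n = 3) for depletion.

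Cxcr6, the receptor of CXCL16, had another order. It stood at 1.56, 2.27, 0.878 and 1.57 CPM in Ptgs+/+ tumors, at 3.07, 5.90 and 6.75 CPM in Ptgs-/- tumors and at 3.75, 4.43 and 4.07 CPM after NK cell depletion. Both groups of Ptgs-/- tumors lay above all Ptgs+/+ tumors and overlapped each other. The means were 1.57 ± 0.568 (SD, n = 4), 5.24 ± 1.93 (SD, n = 3) and 4.08 ± 0.342 CPM (SD, n = 3).

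**Figure D1:**
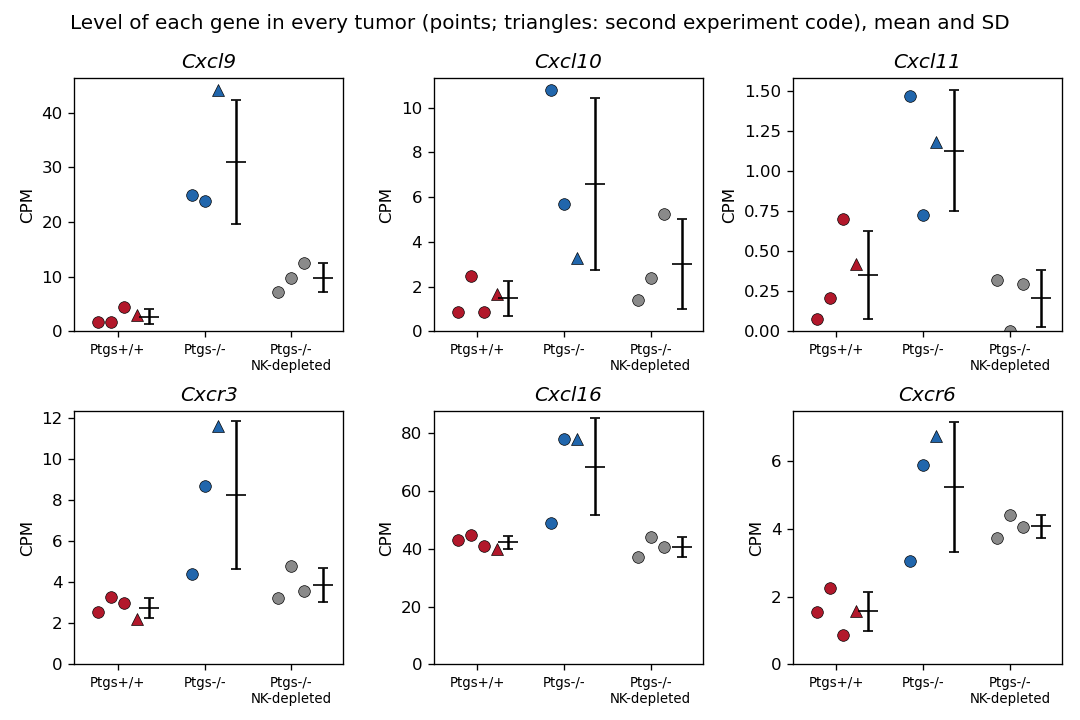
Level of each of the 6 genes in CPM (vertical axis, from 0) in every tumor of the 3 groups. Points are tumors, triangles those of the second experiment code, and bars the mean and SD; Cxcl9 separates all 3 groups, while Cxcr6 of NK cell-depleted tumors (3.75 to 4.43 CPM) sits within the range of Ptgs-/- tumors.

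Loss of COX in the tumor cells was the first comparison. Every tested ligand and receptor of both axes rose. Of the 6 genes, 5 were tested and all 5 passed, where 23.1% of all genes tested passed, 12.1% in the higher direction. For the 5 tested genes the groups did not overlap in CPM, as for 18.1% of genes tested in this direction, and for Cxcl11 they were apart in total-count CPM alone. Cxcl9 rose 10.9-fold (log2 fold change 3.44, SE 0.34, adjusted p = 0.000101, quasi-likelihood test of edgeR, Benjamini-Hochberg). Cxcl10 rose 4.33-fold (log2 2.12, SE 0.53, adjusted p = 0.0148, same edgeR test). Cxcr6 rose by a log2 fold change of 1.69 (SE 0.33, adjusted p = 0.00378, edgeR) and Cxcr3 by 1.52 (SE 0.30, adjusted p = 0.00445, edgeR). Cxcl16 had the smallest rise, at 0.63 (SE 0.15, adjusted p = 0.0116, edgeR). Under the threshold that also asks for a log2 fold change of 1.5, which 4.15% of genes passed, Cxcl16 alone of the 5 was lost.

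For Cxcl11 the difference was 0.776 CPM, and a two-sided exact permutation test gave p = 0.057, the smallest that 3 against 4 tumors allow. The difference in TMM-scaled CPM, an alternative chosen after seeing the data, was 0.745 (p = 0.114, exact permutation test). In a fit without a filter its log2 fold change was 1.62 (SE 0.62, adjusted p = 0.0923, edgeR). Within the first experiment code the log2 fold changes were 3.19 for Cxcl9, 2.55 for Cxcl10, 1.14 for Cxcr3, 1.51 for Cxcr6 and 0.54 for Cxcl16, and that of Cxcl16 no longer passed (adjusted p = 0.0803, edgeR), whereas the others did. The difference in Cxcl11 there was 0.770 CPM. Leaving out Ptgs-/- replicate 1, its highest tumor, put Cxcl10 at 1.56 (adjusted p = 0.0588, edgeR), and leaving out replicate 2 put Cxcl16 at 0.53 (adjusted p = 0.0505, edgeR).

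NK cell depletion of the host was the second comparison, between the 2 groups of Ptgs-/- tumors. All 6 genes had a higher mean with NK cells present, but only Cxcl9 passed, 1 of the 5 tested against 1.44% of all genes and 0.515% in the higher direction. Its log2 fold change was 1.63 (SE 0.34, adjusted p = 0.0386, edgeR's quasi-likelihood test), also past the fold threshold, which 1.15% of genes passed. Cxcl16 differed by 0.73 (SE 0.16, adjusted p = 0.0596, edgeR), Cxcl10 by 1.09 (SE 0.54, adjusted p = 0.502, edgeR) and Cxcr3 by 1.06 (SE 0.32, adjusted p = 0.196, edgeR). Cxcr6 had the smallest difference, 0.34 (SE 0.33, adjusted p = 0.756, edgeR), close to its own standard error. The groups did not overlap for Cxcl9, Cxcl11 and Cxcl16, as for 10.4% of all genes tested in this direction.

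For Cxcl11 the difference was 0.921 CPM (p = 0.1 in the two-sided exact permutation test, its lowest possible value for 3 against 3 tumors), and the log2 fold change without a filter was 2.39 (SE 0.75, adjusted p = 0.148, edgeR). Within the first experiment code, which leaves 2 Ptgs-/- tumors, the values were 1.32 for Cxcl9 (adjusted p = 0.205, edgeR), 1.45 for Cxcl10, 0.78 for Cxcr3, 0.66 for Cxcl16, 0.15 for Cxcr6 and 0.892 CPM for Cxcl11, and none passed. The call of Cxcl9 was lost when 1 library was left out in 6 of 10 cases, with adjusted p = 0.0671 without Ptgs+/+ replicate 4, 0.0609 and 0.140 without Ptgs-/- replicates 2 and 3, and 0.186, 0.170 and 0.0816 without NK cell-depleted replicates 1, 2 and 3 (edgeR). Without Ptgs-/- replicate 1, Cxcr3 (log2 1.35, adjusted p = 0.0181, edgeR) and Cxcl16 (log2 0.91, adjusted p = 0.00409, edgeR) also passed.

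The third comparison set Ptgs-/- tumors from depleted hosts against Ptgs+/+ tumors of untreated mice, so that genotype and treatment differed together. Cxcl9 and Cxcr6, 1 gene of each axis, were higher, 2 of the 5 tested against 12.5% of all genes and 6.63% in the higher direction. Cxcl9 rose by a log2 fold change of 1.82 (SE 0.35, adjusted p = 0.00615, edgeR's quasi-likelihood test) and Cxcr6 by 1.35 (SE 0.33, adjusted p = 0.0209, edgeR), and Cxcl9 alone was past the fold threshold, as were 2.71% of genes. Cxcl10 differed by 1.03 (SE 0.56, adjusted p = 0.264, edgeR), Cxcr3 by 0.45 (SE 0.32, adjusted p = 0.402, edgeR) and Cxcl16 by -0.09 (SE 0.15, adjusted p = 0.762, edgeR). Cxcl9 and Cxcr6 were also the only members whose groups did not overlap, as for 15.1% of genes tested in this direction. Cxcl11 was lower by 0.145 CPM (difference -0.145, exact permutation test, two-sided, p = 0.514), with a log2 fold change of -0.77 without a filter (SE 0.81, adjusted p = 0.692, edgeR).

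Within the first experiment code Cxcl9 kept its call at 1.87, and the log2 fold change of Cxcr6 was 1.36 at an adjusted p of 0.0515 (edgeR). The others stood there at 1.10 for Cxcl10, 0.36 for Cxcr3, -0.12 for Cxcl16 and -0.122 CPM for Cxcl11. The adjusted p of Cxcr6 was also above 0.05 without Ptgs+/+ replicate 1 (0.0539) or without NK cell-depleted replicate 1, 2 or 3 (0.0528, 0.0762 and 0.0664, edgeR). Each pair of the 3 comparisons shares the libraries of 1 group, so their values for a gene are not independent.

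**Figure D2:**
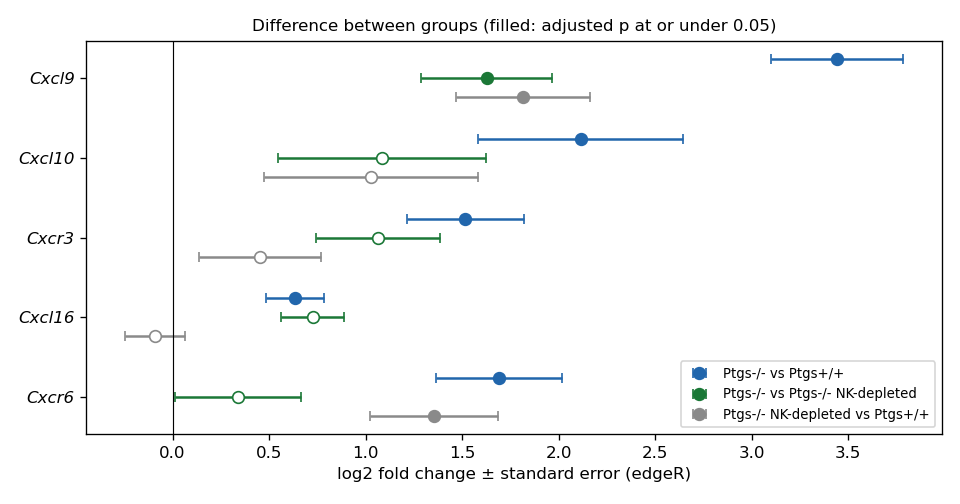
Log2 fold change with standard error (horizontal axis) of the 5 tested genes in the 3 comparisons, with filled points for an adjusted p at or under 0.05. All 5 points of Ptgs-/- against Ptgs+/+ tumors are filled, against Cxcl9 alone for Ptgs-/- tumors with against without NK cells, and Cxcl9 and Cxcr6 for NK cell-depleted Ptgs-/- against Ptgs+/+ tumors.

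Whether members moved unequally was tested within tumors, as the difference of log2(CPM + 1) between 2 genes, for 5 pairs in 3 comparisons by two-sided exact permutation tests. None of the 15 tests passed after Benjamini-Hochberg adjustment (smallest adjusted p = 0.171, exact permutation), and none could have, since 3 against 4 tumors allow no p under 0.057. The receptors were closest after NK cell depletion. The excess of Cxcr3 over Cxcr6 in Ptgs+/+ tumors was 0.57 ± 0.35 on this scale (SD, n = 4), against 0.53 ± 0.15 in Ptgs-/- tumors (SD, n = 3) and -0.08 ± 0.15 after depletion (SD, n = 3), where every tumor lay below every tumor of the other groups. The change in this excess was -0.03 for Ptgs-/- against Ptgs+/+ tumors (exact permutation p = 0.971), 0.61 with against without NK cells (p = 0.1, exact, the smallest for 3 against 3) and -0.64 for depleted Ptgs-/- against Ptgs+/+ tumors (p = 0.057, exact).

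Cxcl9 gained on Cxcl16 by 2.46 and on Cxcl11 by 2.45 between Ptgs+/+ and Ptgs-/- tumors, both without overlap (exact permutation p = 0.057 each), though Cxcl11 is so low that the added 1 CPM holds its log2 values near 0. In the depleted tumors the gains over Ptgs+/+ tumors were 1.64 and 1.73 (p = 0.057 each, exact permutation), and those of Ptgs-/- over depleted tumors 0.83 and 0.72 (p = 0.2 each, exact permutation). Cxcl10 against Cxcl11 moved by 0.89, 0.10 and 0.79 in the 3 comparisons as ordered above (exact permutation p = 0.114, 0.8 and 0.171). For Cxcl9 against Cxcl10 the changes were 1.57, 0.63 and 0.94 (exact permutation p = 0.114, 0.4 and 0.114).

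Single tumors differed in the order of the last pair. Ptgs-/- replicate 3 had the highest Cxcl9 of all tumors, at 44.1 CPM, and the lowest Cxcl10 of its group, at 3.28 CPM, whereas replicate 1 had the highest Cxcl10 of all tumors, at 10.8 CPM. The excess of Cxcl9 over Cxcl10 was 1.14, 1.89 and 3.40 in the Ptgs-/- tumors in the order of their replicates. Among Ptgs+/+ tumors, replicate 3 had the highest Cxcl9 but, at 0.878 CPM, nearly the lowest Cxcl10, and its excess of 1.54 stood against 0.51, -0.34 and 0.59 in replicates 1, 2 and 4. After depletion the 2 genes instead had the same order, with replicate 3 highest and replicate 1 lowest for both. Ptgs-/- replicate 3 carries the second experiment code, and without that code the change of Cxcl9 against Cxcl10 with NK cells was -0.0020. Ptgs-/- replicate 1, with the highest Cxcl10, was the lowest of its group for Cxcr3, Cxcl16 and Cxcr6.

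**Figure D3:**
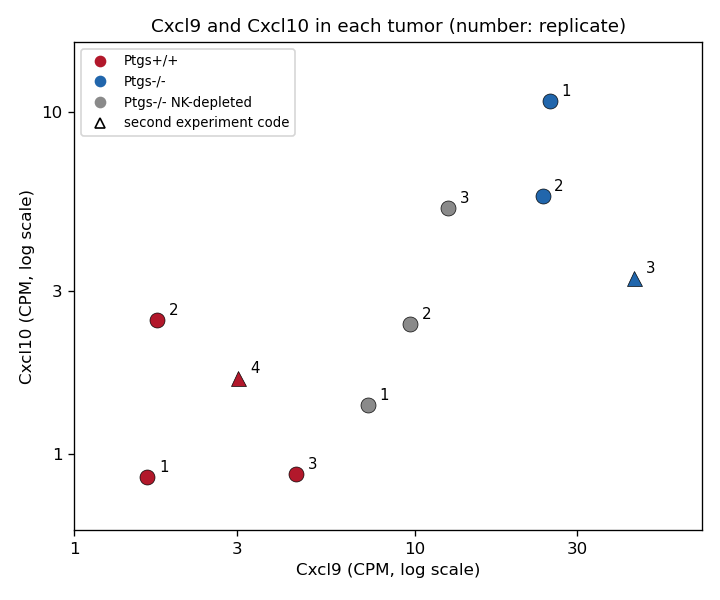
Cxcl9 (horizontal) against Cxcl10 (vertical) in CPM on log axes, 1 point for each of the 10 tumors, numbered by replicate, with triangles for the second experiment code. Ptgs-/- replicate 3 is farthest right (44.1 CPM of Cxcl9) but lowest of its group in Cxcl10 (3.28 CPM), while the 3 NK cell-depleted tumors rise in both genes together.

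The genes beside the ligand cluster did not share its change as a block. Sdad1, whose start lies 17.6 kb from that of Cxcl9, differed by -0.02 in Ptgs-/- against Ptgs+/+ tumors (adjusted p = 0.905, edgeR). Art3, the gene that surrounds Cxcl10 on the opposite strand, differed by 0.35 (SE 0.41, adjusted p = 0.575, edgeR), unlike Cxcl10. Nup54 and Scarb2 on the far side of the ligands did not pass either, at -0.27 and -0.17 (adjusted p = 0.254 and 0.295, edgeR). Naaa, which encodes a lysosomal amidase and starts 49.9 kb from Cxcl9, rose by 1.96 (adjusted p = 0.000164, edgeR) and was also higher in NK cell-depleted Ptgs-/- than in Ptgs+/+ tumors, by 1.56 (adjusted p = 0.000719, edgeR).

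**Figure D4:**
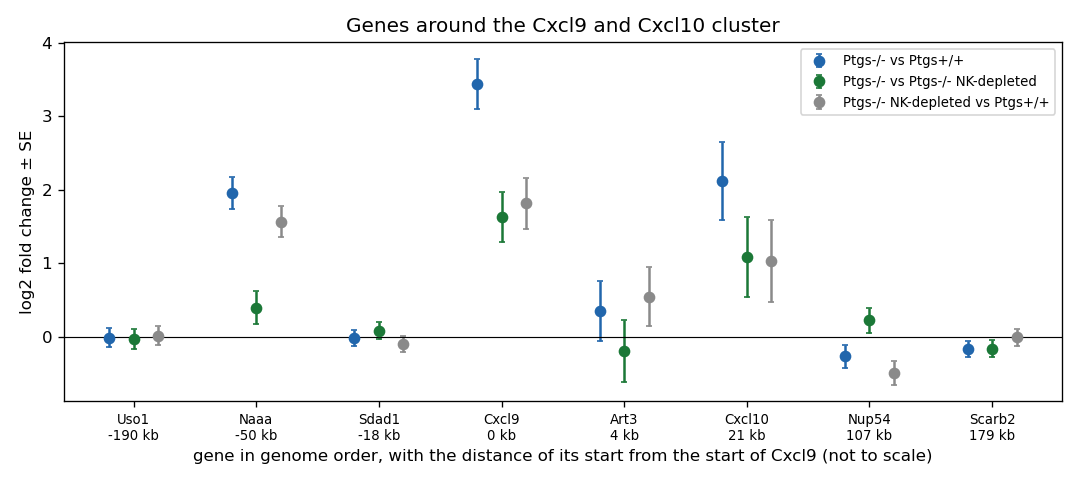
Log2 fold change with standard error (vertical axis) of the tested genes around Cxcl9 and Cxcl10 in genome order, with the distance of each start from that of Cxcl9 in kb, in the 3 comparisons. Cxcl9, Cxcl10 and Naaa stand above 0 (3.44, 2.12 and 1.96 for Ptgs-/- against Ptgs+/+ tumors), while Sdad1 between them is at -0.02; spacing is not to scale.

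Of 13 genes listed as neighbors of the 6 members, 4 rose in Ptgs-/- against Ptgs+/+ tumors and 0 fell, with a median of 0.20 against -0.01 for all genes tested. Besides Naaa these were Xcr1 near Cxcr6, a chemokine receptor of type 1 dendritic cells (2.16, adjusted p = 6.39e-05, edgeR), Zmynd15 beside Cxcl16 (1.27, adjusted p = 0.00699, edgeR) and Ogt on the X chromosome, the glycosyltransferase of O-GlcNAc (0.50, adjusted p = 0.0192, edgeR). With NK cells against without, 0 of the 13 passed edgeR's quasi-likelihood test (3 at an unadjusted p under 0.05, and Zmynd15 alone with DESeq2 or edgeR's likelihood ratio test), and in depleted Ptgs-/- against Ptgs+/+ tumors Naaa and Xcr1 rose (log2 1.56 and 1.41). Zmynd15, which shares exonic bases with Cxcl16 on the opposite strand, had the same pattern as Cxcl16, at 2.63, 6.60 and 2.79 CPM in Ptgs+/+, Ptgs-/- and depleted tumors. With the strand setting not given, the reads of these 2 genes may not be told apart where they overlap. The overlap, chr11:70459433-70459984, lies at the 5′ end of Cxcl16, whereas RNA was sequenced from 3′ ends. Fyco1, around Cxcr6, differed by 0.06 only (adjusted p = 0.767, edgeR). Counts of these neighbors and of the lists below are to be read beside the shares of all genes tested that passed. These were 23.1%, 1.44% and 12.5% in the 3 comparisons as ordered above, and 12.1%, 0.515% and 6.63% in the higher direction. At the low shares of the second comparison, a count of 0 does not set a short list apart from all genes.

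Partners of the axes moved one by one. These are the alternative CXCR3 ligand Pf4, the protease Dpp4 that truncates and inactivates CXCR3 ligands, the scavenging receptors Ackr1 and Ackr3, the sheddases Adam10 and Adam17 and the CCR7 ligand Ccl21a, 7 genes of which 6 were tested. In Ptgs-/- against Ptgs+/+ tumors 2 rose and 1 fell, with a median of 0.04, and 1 rose without Ptgs+/+ replicate 2 or Ptgs-/- replicate 2. Dpp4 went from 14.7 ± 2.76 CPM (SD, n = 4) to 45.5 ± 14.9 (SD, n = 3), a log2 fold change of 1.58 (adjusted p = 0.000507, edgeR). Ackr3 rose by 0.76 (adjusted p = 0.0236, edgeR), from 32.4 to 56.8 CPM. Pf4, a platelet and macrophage chemokine, fell by 0.80 (adjusted p = 0.00168, edgeR), from 444 to 266 CPM, opposite to the other ligands of CXCR3. The sheddases of CXCL16 differed by -0.01 for Adam10 and -0.06 for Adam17, and Ackr1 by 0.09, none past the threshold.

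With NK cells against without, 0 of the 6 partners passed edgeR's quasi-likelihood test, against 2 at an unadjusted p under 0.05 and 1 with either DESeq2 or edgeR's likelihood ratio test. Ackr3 and Dpp4 differed there by 0.82 and 0.63 (adjusted p = 0.156 and 0.285, edgeR). In depleted Ptgs-/- against Ptgs+/+ tumors Dpp4 rose by 0.95 (adjusted p = 0.0130, edgeR) and Pf4 fell by 0.78 (adjusted p = 0.00292, edgeR), while Ackr3 was at -0.06, Ackr1 at -0.01, Adam10 at 0.10 and Adam17 at -0.17. Ccl21a, one of several near-identical copies, was removed by the filter on low counts.

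The pathway that induces the CXCR3 ligands was read from 16 genes of interferon and NF-κB signaling, of which 14 were tested. In Ptgs-/- against Ptgs+/+ tumors 6 rose and 0 fell, with a median of 0.36. The rises were largest for the transcription factors Irf7 (1.84, adjusted p = 0.000934, edgeR) and Stat2 (1.51, adjusted p = 0.00147, edgeR). Irf1, an interferon-induced transcription factor, rose by 0.80 (adjusted p = 0.000260, edgeR), from 153 ± 9.91 CPM (SD, n = 4) to 277 ± 28.4 (SD, n = 3). Ifnar1, a chain of the type I interferon receptor, Irf9, a partner of STAT2, and the kinase Jak1 rose by 0.68, 0.63 and 0.37 (adjusted p = 0.00910, 0.00920 and 0.0259, edgeR). The IFN-γ receptor chains Ifngr1 and Ifngr2 differed by 0.22 and 0.35, Ifnar2 by 0.18, Jak2 by -0.19, the feedback inhibitor Socs1 by 0.20, Tnf by 1.06, and the NF-κB subunits Rela and Nfkb1 by -0.14 and 0.04, none past the threshold. Ifng had at most 2 counts in a Ptgs+/+ library, 3 to 7 in the Ptgs-/- libraries and at most 1 after depletion, and Ifnb1 had 0 in all 10 libraries. The filter on low counts removed both, so neither had a test in the main fit.

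With NK cells against without, Irf1 was the 1 gene of the 14 that passed, at 0.50 (adjusted p = 0.0341, edgeR), and the median was 0.27. No inducer passed there within the first experiment code, or without Ptgs+/+ replicate 4, Ptgs-/- replicate 2 or 3, or any 1 of the depleted tumors. Stat2, Irf7 and Tnf had larger differences that did not pass, at 1.01, 0.91 and 0.80 (adjusted p = 0.113, 0.235 and 0.483, edgeR). The others that did not pass stood between -0.14 for Rela and 0.52 for Irf9. In depleted Ptgs-/- against Ptgs+/+ tumors Irf7 rose (0.92, adjusted p = 0.0482, edgeR) and Jak2 fell by 0.32 (adjusted p = 0.0440, edgeR), with a median of 0.09. Irf1 there stood at 0.30 (adjusted p = 0.057, edgeR) and Stat2 at 0.50 (adjusted p = 0.225, edgeR).

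**Figure D5:**
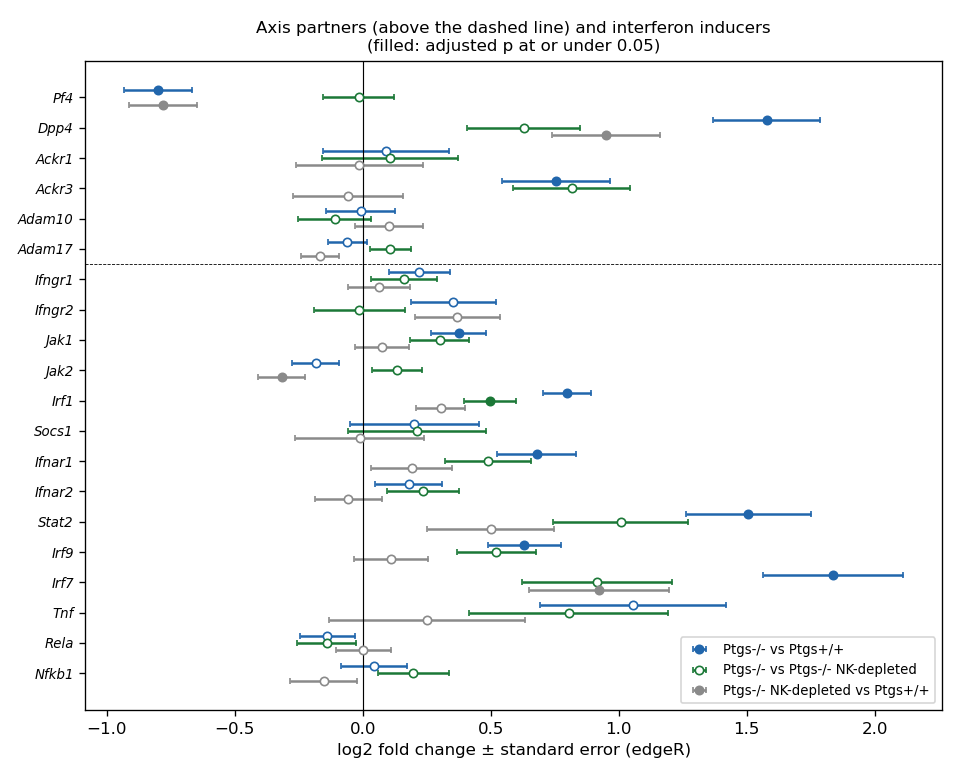
Log2 fold change with standard error (horizontal axis) of the tested axis partners, above the dashed line, and interferon inducers, below it, in the 3 comparisons; filled points have an adjusted p at or under 0.05. Pf4 is the partner that fell past the threshold (-0.80) for Ptgs-/- against Ptgs+/+ tumors, and Irf7 and Stat2 lie farthest right among inducers (1.84 and 1.51).

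Genes that act downstream of chemokine receptors were described by 12 genes, all tested. In Ptgs-/- against Ptgs+/+ tumors 6 rose and 0 fell, with a median of 0.61. Dock2 and Rac2, an exchange factor and a GTPase of leukocyte migration, rose by 1.64 and 1.41 (adjusted p = 0.000195 and 0.000256, edgeR). The actin regulator Coro1a rose by 1.06, the PI3Kγ subunits Pik3r5 and Pik3cg by 0.82 and 0.57, and the arrestin Arrb2 by 0.73. With NK cells against without, 0 of the 12 passed edgeR's quasi-likelihood test, against 4 at an unadjusted p under 0.05, 3 with DESeq2 and 2 with edgeR's likelihood ratio test. Dock2 came nearest at 0.88 (adjusted p = 0.0512, edgeR). In depleted Ptgs-/- against Ptgs+/+ tumors Rac2, Dock2 and Coro1a rose, by 0.76, 0.76 and 0.75.

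Most of the other CXC genes tested were lower in Ptgs-/- than in Ptgs+/+ tumors. Of 14 other CXC ligands and receptors, 12 were tested, and in Ptgs-/- against Ptgs+/+ tumors 0 rose and 8 fell, with a median of -2.11. They include the neutrophil attractants Cxcl1, Cxcl2, Cxcl3, Cxcl5 and Ppbp, with log2 fold changes of -2.65, -1.89, -3.06, -2.88 and -4.93, and their receptor Cxcr2, at -2.32 (largest adjusted p of these, 0.0320 for Cxcl2, edgeR). Cxcl14 and Cxcl12 stood at -2.35 and -1.14. The other 4 tested, Cxcl13, Cxcl15, Cxcr4 and Cxcr5, did not pass. The number that fell was 5 without Ptgs+/+ replicate 1 and 5 within the first experiment code. With NK cells against without, Cxcl5 alone passed, at -1.26 (adjusted p = 0.0284, edgeR), from 33.8 CPM in depleted to 14.4 CPM in NK cell-competent mice, and 0 passed within the first code or without Ptgs+/+ replicate 1, Ptgs-/- replicate 2 or 3, or any 1 of the depleted tumors (3 of 12 were lower at an unadjusted p under 0.05 with all libraries, and 3 with DESeq2). In depleted Ptgs-/- against Ptgs+/+ tumors 6 fell, with a median of -1.39, against 3 without depleted replicate 1 or 3. Cxcl5 thus lay between its other groups after depletion, as Cxcl9 did in the opposite direction.

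Levels of marker genes of the cells that make these chemokines or carry their receptors moved with the groups as well. In bulk RNA, fewer cells of a type and less RNA per cell cannot be told apart. The summed level of 10 NK cell markers, Il2rb and Gzma the most abundant, ran from 18.1 to 45.4 CPM in Ptgs+/+ tumors, from 106 to 245 in Ptgs-/- tumors and from 6.16 to 9.41 after depletion, where Ncr1 and Prf1 were at 0. All 9 tested rose in Ptgs-/- against Ptgs+/+ tumors and were higher with NK cells than without. Cxcr3 and Cxcr6 were detected in every depleted tumor, at 30 to 52 and 35 to 48 counts, beside NK cell markers that summed to less than in any Ptgs+/+ tumor. The sum of 10 T cell markers, led by Cd3d and Lat, was 4.83 to 8.06 CPM in Ptgs+/+ tumors, 16.6 to 41.8 in Ptgs-/- tumors and 13.01 to 19.37 after depletion. Of the 9 tested, 8 rose in Ptgs-/- against Ptgs+/+ tumors, 0 passed with depletion (4 at an unadjusted p under 0.05, 0 with DESeq2) and 4 were higher in depleted Ptgs-/- than in Ptgs+/+ tumors. Their part in the values of Cxcr3 and Cxcr6 was not tested.

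Markers of other cell types, those that make the ligands among them, also moved with the groups. For type 1 dendritic cells the sum of 8 markers, led by Wdfy4 and Cadm1, was 76.8 to 88.8 CPM in Ptgs+/+ tumors, 172 to 218 in Ptgs-/- tumors and 158 to 173 after depletion, with 6, 0 and 5 of 8 higher in the 3 comparisons by edgeR's quasi-likelihood test. Macrophage markers, led by Apoe and C1qa, ran from 2445 to 3040, 4030 to 6016 and 3853 to 4110 CPM, with 8, 0 and 3 of 10 higher. Monocyte markers, led by Fn1 and Ccr2, ran from 1229 to 1645, 2872 to 3408 and 2199 to 2555 CPM, with 6, 1 and 4 of 8 higher, while Vcan was lower in both comparisons with Ptgs+/+ tumors (-0.93 and -1.14, adjusted p = 0.000250 and 9.42e-05, edgeR). Fn1 alone averaged 718, 1383 and 1140 CPM in the 3 groups, so these sums follow it to a large part. Markers listed for plasmacytoid dendritic cells, mostly reads of Tcf4 and Bst2, ran from 562 to 639, 650 to 810 and 636 to 748 CPM, with 4, 0 and 3 of 6 higher. Cox6a2 of this list, at 2.78, 7.87 and 45.5 CPM in the 3 groups, was among those higher in both comparisons with Ptgs+/+ tumors and was lower with NK cells than without (-2.57, adjusted p = 0.00433, edgeR). Its levels had the order of those of the skeletal muscle marker Mb, at 1.02, 3.40 and 42.9 CPM. Whether the calls of Cox6a2 reflect plasmacytoid dendritic cells was not tested. Fibroblast markers, led by Col1a2 and Col1a1, rose in 5 of 8 genes, 0 and 1 in the same comparisons (7720 to 10710, 13860 to 17280 and 11000 to 14030 CPM). Neutrophil markers, led by Mmp9 and S100a8, fell in 6, 2 and 5 of 10 genes, from 444 to 688 CPM in Ptgs+/+ to 115 to 166 in Ptgs-/- and 177 to 235 in depleted tumors, and endothelial markers, led by Esam and Pecam1, in 4, 0 and 0 of 8 genes. Mmp9 alone averaged 290, 33.5 and 51.1 CPM in the 3 groups, so the neutrophil sums of Ptgs+/+ tumors come from it to a large part. Csf3r of this list stood at 3.38, 5.40 and 4.64 CPM and passed in no comparison. The neutrophil marker Retnlg rose in the third comparison (1.77, adjusted p = 0.0139, edgeR), from 5.41 to 18.7 CPM. Of the 2 melanocytic markers tested, 0 passed in any comparison, also at an unadjusted p under 0.05 or with DESeq2. In the comparison with depletion, counts of 0 stood against 2, 5, 1, 0 and 0 markers at an unadjusted p under 0.05 for type 1 dendritic cells, macrophages, the plasmacytoid list (higher), fibroblasts and endothelium, and against 0, 1, 1, 0 and 0 with DESeq2. For endothelium in depleted Ptgs-/- against Ptgs+/+ tumors 4 markers were lower at an unadjusted p under 0.05 and 2 with DESeq2.

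Skeletal muscle genes, led by Acta1 and Myh4, set the depleted tumors apart, at a summed 2202 to 5183 CPM against 17.2 to 153 in Ptgs+/+ and 98.8 to 351 in Ptgs-/- tumors, with all 7 tested genes higher than in either. Ptgs-/- tumors of untreated mice also exceeded Ptgs+/+ tumors in 2 of the 7, with 0 lower and a median log2 fold change of 1.61. There 7 were higher at an unadjusted p under 0.05, 2 with DESeq2 and 5 with edgeR's likelihood ratio test. Muscle genes move with the NK cell-depleted group in every comparison that involves it. The part of muscle genes in the values of the chemokine genes was not tested.

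The genes whose levels were most like each member across the 10 libraries, by Pearson's r of log2(CPM + 1), are a description over libraries that share groups and depth. Cxcl9 was most like Plek (r = 0.976, rho = 0.976), Ap3m2 (r = 0.971) and Tap1 (r = 0.971), the last a peptide transporter of antigen presentation. Cxcl10 was followed less closely, by Rara (r = 0.914), A530032D15Rik (r = 0.913) and Arhgap12 (r = 0.899). Cxcl11 was most like Strip2 (r = 0.971), Gm43112 (r = 0.943) and Gm37795 (r = 0.935), all at low levels. Cxcr3 was most like Skap1 (r = 0.987), an adaptor of T cell receptor signaling at 0.983, 4.76 and 1.48 CPM in the 3 groups, then Parp4 (r = 0.987). The nearest to Cxcl16 were its overlapping neighbor Zmynd15 (r = 0.990), Dnm2 (r = 0.954) and Spi1 (r = 0.943), the gene of the myeloid factor PU.1. Cxcr6 was most like Dip2b (r = 0.981), Wdfy4 (r = 0.971), a gene of antigen cross-presentation that is also on the type 1 dendritic cell list, and Man2b1 (r = 0.969). Wdfy4 stood at 24.9, 59.6 and 53.3 CPM in Ptgs+/+, Ptgs-/- and depleted tumors, so that, as for Cxcr6, the depleted tumors lay near the NK cell-competent ones.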

How the data were processed

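RNA from 10 bulk tumors was sequenced with the QuantSeq 3′ FWD kit. The authors removed 12 leading bases and contaminants (BBDUK) and polyG and polyA tails (fqtrim, cutadapt), mapped reads to GRCm38 (STAR) and assigned them to Ensembl version 86 genes (featureCounts). Raw, unpooled counts were deposited with no normalization. Tool versions, strand setting and molecular identifiers are not given in the sources used here. The submitters' processing notes also name bcl2fastq and edgeR.

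Groups came from the sample labels. Of 45706 gene identifiers, 45143 were named by GENCODE M21, which also gave coordinates, and 563 had no name. In R 4.3.3, edgeR 4.0.16 applied filterByExpr (14550 genes kept), TMM factors and the quasi-likelihood test in 1 model of all 10 libraries with 7 residual degrees of freedom, with Benjamini-Hochberg adjustment. The study's additional fold threshold was an alternative. The SE is the log2 fold change divided by the root of F. CPM values use total counts (8150556 to 12839174) as denominator. Exact permutation tests used scipy 1.17.1 with a pseudocount of 1 CPM for pairs of genes, and for Cxcl11, which the filter removed, CPM. Replicates differed by a chi-square of 7.41 to 30.1 per degree of freedom, so none was a library deposited more than once.

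The 6 members, gene lists and motifs were chosen with earlier results of these data known. Named were the members, the targeted genes and Ncr1, all tested axis partners and interferon inducers, genes of the other pathway lists that passed in a comparison, the 2 most abundant markers of a cell type, and the 3 genes most like each member. Genes named beyond this rule (such as Sdad1, Art3 and Fyco1) were added for their position or as examples after their values were seen. An interferon inducer and a gene most like Cxcr3 are not reported here, and the counts and medians of the inducers leave the former out. RefSeq promoters matched 4 of the 6 members. Counts of Ptgs-/- against Ptgs+/+ tumors were simulated with 14351 genes run and 200 changed by a log2 fold change of 2. The test called 190 of these (95%) and 12 unchanged genes. Smaller changes, such as that of Cxcl16, and the other comparisons were not simulated. Alternatives were DESeq2 1.42.0, library size alone, the likelihood ratio test, other filters and pseudocounts, each library left out, a block for label number, a term for experiment code, libraries of the first code, and fits of the compared groups alone.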

Additional observations from a re-analysis of the deposited data

How the results depend on the processing

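Depth and group size limit these results: 3 or 4 tumors a group, Cxcl11 near the floor of 3 counts, and 36 to 88 counts for Cxcl10 in Ptgs-/- tumors. In no fit did a log2 fold change of a tested member change sign, and the causes of the changes below were not tested. For Ptgs-/- against Ptgs+/+ tumors, 3360 genes passed, but 2222 within the first experiment code, where Cxcl16 stood at 0.54 and lost its call, and 604 with the log2 fold threshold of 1.5. With each library left out the number ran from 2062 (without Ptgs-/- replicate 2) to 3881, members passing from 4 to 5, Cxcl10 from 1.56 to 2.49 and Cxcl16 from 0.53 to 0.82. For NK cell-competent against depleted mice, 209 genes passed, against 383 with DESeq2, 408 without a filter, 403 with the likelihood ratio test, 42 where all libraries had to reach 10 counts and 93 within the first code. Members passing were 2 under library size alone, DESeq2, no filter and the likelihood ratio test, where Cxcl16 joined Cxcl9 at 0.75, 0.74, 0.72 and 0.73. They were 0 with 10 counts in every library, the code as a term and the first code alone, where Cxcl9 stood at 1.65, 1.39 and 1.32. With each library left out, genes passing ran from 106 to 411 (without Ptgs-/- replicates 2 and 1), members from 0 to 3, Cxcl9 from 1.32 to 1.85, Cxcr3 from 0.78 to 1.35, Cxcl16 from 0.62 to 0.91, Cxcl10 from 0.53 to 1.76 and Cxcr6 from 0.15 to 0.59. For depleted Ptgs-/- against Ptgs+/+ tumors, 1818 genes passed, and 395 with the fold threshold. Members passing were 1 under that threshold and within the first code, where Cxcr6 stood at 1.36. With each library left out, genes passing ran from 909 (without depleted replicate 3) to 2116, members from 1 to 2, Cxcr6 from 1.16 to 1.58 and Cxcl10 from 0.39 to 1.41. Small pair differences changed sign: Cxcl10 against Cxcl11 with NK cells was -0.19 with a pseudocount of 0.5 and ran from -0.29 to 0.47 with each library left out (negative at -0.29, -0.17 and -0.02), Cxcr3 against Cxcr6 between genotypes was 0.046 with a pseudocount of 2 and ran from -0.12 to 0.14 (positive at 0.14 and 0.03), and Cxcl9 against Cxcl10 with NK cells was -0.0020 within the first code or without Ptgs-/- replicate 3 and at most 1.13. For Cxcl11, alternatives chosen after seeing the data kept each sign, and with TMM-scaled CPM the difference between genotypes was 0.745 CPM (exact permutation p = 0.114). Counts of pathway genes moved too: with NK cells, interferon inducers passing ran from 0 to 3, and Jak2 in the last comparison was not called under several alternatives.

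The deviations of 11 same-number pairs correlated from -0.24 to 0.36, with 4 above 0.1, and those of different-number pairs from -0.43 to 0.17. In groups of 3 or 4 tumors these correlations cannot decide whether label numbers pair the tumors. With the number as a replicate block, 3237, 195 and 1769 genes passed in the 3 comparisons, the members passing were 5, 1 and 2 as without it, and Cxcl9 stood at 3.42, 1.61 and 1.82.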
